A study of Mus musculus with 8 samples.

Results

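The genes described here are those of the cytosolic ribosomal proteins, the structural proteins of the ribosome, in the livers of mice with and without the melanocortin 1 receptor (Mc1r) in hepatocytes. They were chosen by name alone, as every gene whose symbol is Rpl, Rplp or Rps followed by a number and at most 2 letters, together with Rpsa. Of the 55487 genes in the count tables, 86 met this rule, 53 with large subunit symbols and 33 with small subunit symbols. The annotation calls 82 of them protein coding, Rpl6l and Rpl32l processed pseudogenes, and Rpl37rt and Rps4l transcribed processed pseudogenes. Known ribosomal proteins with other names (such as Rps3a1, Fau and Rack1) fall outside the rule and are described separately. Whole liver was sequenced from 8 mice, of which 154, 159, 181 and 193 were controls and 141, 156, 157 and 182 were Mc1r LKO mice. All were adult males fed a Western diet for 12 weeks. Control mice carried floxed Mc1r alleles (Mc1r fl/fl) without Cre, and Mc1r LKO mice carried the same floxed alleles together with the Alb-Cre transgene. The albumin promoter of that transgene is active in hepatocytes, and the study describes the loss of Mc1r as specific to these cells. Whether other liver cells kept Mc1r was not tested here.

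As background, a ribosome is built from a small subunit, which reads the messenger RNA, and a large subunit, which joins amino acids into protein. Their proteins are made in nearly equal numbers, are assembled with ribosomal RNA in the nucleolus, and are degraded when made in excess. Ribosomal protein messenger RNAs begin with a cytosine followed by a run of pyrimidines, the terminal oligopyrimidine (TOP) motif, through which mTOR signalling and the protein Larp1 set their translation. Several ribosomal proteins have a paralog, a related gene used mainly in testis, muscle or a few other tissues, and the genome holds a great many processed pseudogenes copied from their messenger RNAs.

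The count of read pairs per mouse lay between 10773151 and 24763375, with the lowest in control mouse 159. Mc1r itself had 0 counts in all 8 mice, so the genotype could not be checked against its target. The 8 hepatocyte markers summed to 74211 to 90855 CPM in control mice and 80769 to 107620 CPM in Mc1r LKO mice (CPM are counts set to one library size with TMM factors), and no defining marker of hepatocytes was absent. No library repeated another within sampling noise. The labels name separate mice, so p-values measure the spread between mice.

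The sequence around the annotated start was read for the 64 members with a RefSeq promoter entry (GRCm38.p6), because a pyrimidine run at the start is what defines the TOP motif. A start with C followed by at least 4 bases that are each C or T was found in 15 of the 64 (23.4%), against 813 of 27025 genes with a promoter entry (3.01%). A gene with several entries was counted once, if any of them held the match. A window of 30 bases, 10 before the annotated start and 20 from it, is shown for 4 members that had such a run and for 1 that did not, with the run at the start in capitals.
Rpl15, chr14:18270967-18270996, minus strand: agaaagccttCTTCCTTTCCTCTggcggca
Rps18, chr17:33955646-33955675, minus strand: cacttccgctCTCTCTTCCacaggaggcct
Rps6, chr4:86857348-86857377, minus strand: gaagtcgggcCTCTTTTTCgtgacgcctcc
Rpl38, chr11:114668570-114668599, plus strand: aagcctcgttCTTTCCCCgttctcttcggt
Rpl13, chr8:123102340-123102369, plus strand: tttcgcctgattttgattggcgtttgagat
The Rpl13 window holds no such run at its annotated start, and an annotated start can lie a few bases from the one used in liver. Members with no match are therefore not shown to lack the motif. Within the 300 bases around the start (250 before it and 50 after), CCGGAAGT, the core bound by ETS factors, was found on either strand in 12 of the 64 members (18.8%) and in 4.31% of all genes with an entry. GGGCGG, the core of GC boxes, was found in 37 members (57.8%) and in 38.2% of all genes with an entry. AAGATGGC, the core bound by YY1, was found in 5 members (7.81%, against 3.19%), and TATAAA in 7 (10.9%, against 15.7%). These letters were matched exactly and are a description of the sequence.

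Ribosomal protein genes were among the better expressed genes of the liver, and 81 of the 86 members passed the filter on low counts, 79 of them with a level above the median of all genes tested (7.16 TPM). Levels between genes were compared as TPM (counts divided by the exonic length in the tables and scaled to a common total), as a mean over the 8 mice. The 81 genes spanned 245-fold, from 4.62 to 1135 TPM, with a median of 119 TPM. Highest was Rplp1, an acidic protein of the stalk that recruits elongation factors, at 1059 ± 70.8 TPM in control mice and 1210.2 ± 132 TPM in Mc1r LKO mice (mean ± SD, n = 4 in each). Next came Rps15 (685 ± 76.2 and 782 ± 92.1 TPM), Rps2 (542 ± 18.1 and 615 ± 21.3 TPM), Rpl36 (508 ± 62.2 and 587 ± 78.8 TPM) and Rpl4 (500.1 ± 14.8 and 523 ± 46.4 TPM). Rpl36 lay within its own SD of both Rps2 and Rpl4, and the next genes differed by less than their SD too, with Rpl8 (379.6 ± 21.5 TPM) and Rplp0 (378 ± 14.5 TPM) as examples in control mice. Read pairs that align to several genes were not counted, which lowers some levels more than others. Of the 75-base windows of Rps2, 71.1% occur in transcripts of another gene, as do 70.9% for Rpl36, 45.9% for Rplp1 and 19.7% for Rps15. For Rpl4 the share was 8.5% and for Rpl8 4.9%, so the order of these levels is uncertain. The 5 genes of lowest level among the 81 were Rps15a, Rpl13a, Rpl37rt, Rps10 and Rps27rt.

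**Figure D1:**
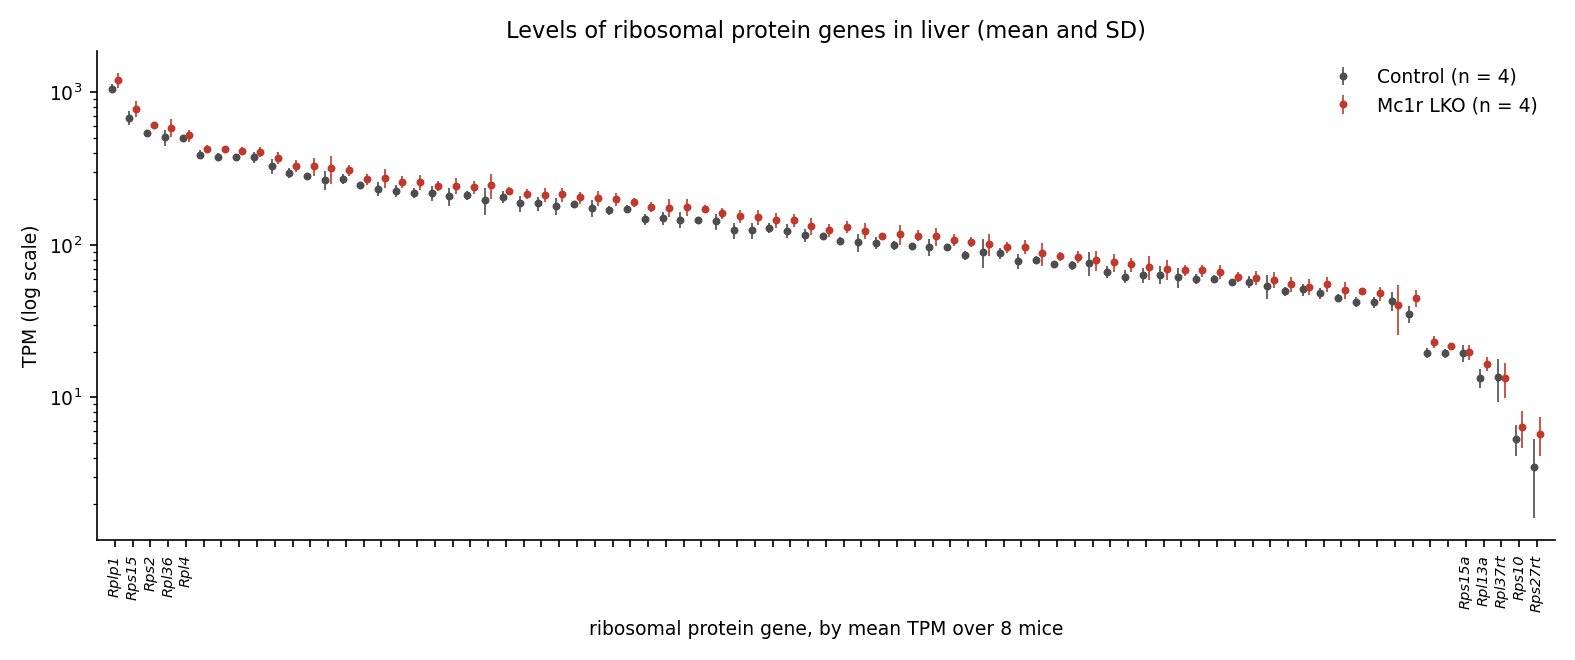
Level of each of the 81 ribosomal protein genes kept by the filter, as TPM on a log axis, with genes ordered by their mean over the 8 mice. The 5 highest and 5 lowest genes are named, points are the mean of 4 control mice (grey) or 4 Mc1r LKO mice (red) and bars the SD; levels fall from 1135 TPM for Rplp1 to 4.62 TPM for Rps27rt, with most genes near the median of 119 TPM.

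Low levels went with limits of the counting for some of these genes. Rpl24 (19.6 ± 1.55 TPM in control mice) shared 47.0% of its exonic bases with Gm28037 on the same strand, Rpl13a (13.5 ± 1.85 TPM) shared 35.4%, mostly with Gm45713, and Rps10 (5.36 ± 1.25 TPM) shared 20.6% with the readthrough gene RPS10-NUDT3. Read pairs on bases shared by genes were not counted, so the levels of these 3 genes are lower bounds. Rps15a (19.6 ± 2.42 TPM) shared none, and its exonic length of 6270 bases is the longest of the 86 genes. Dividing by the length of 1 coding transcript instead kept 7 of the 10 highest genes among the 10 highest, and the rank correlation of the levels on the 2 lengths was 0.83 over the 81 genes, which share libraries and counts.

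The 5 members not kept by the filter were rare paralogs or pseudogenes. Rpl10l, the testis copy of Rpl10, had 0 counts in every mouse, which allows at most 3 counts or between 0.121 and 0.279 CPM depending on the mouse. Rpl39l, the testis copy of Rpl39, had 0, 2, 0 and 0 counts in the control mice and 1, 0, 0 and 0 in the Mc1r LKO mice, while Rpl39 stood at 51.1 ± 4.66 and 53.3 ± 6.37 TPM. Rpl3l, the striated muscle copy of Rpl3, had a count in 2 mice only, 1 in control mouse 193 and 4 in Mc1r LKO mouse 157, against 79.8 ± 5.32 TPM of Rpl3 in control mice. Rpl32l reached at most 1 count in a mouse and Rpl6l at most 8. The tissue-restricted copies were thus at or near 0 in livers of both genotypes, and no comparison between genotypes could be made for them at this depth. Reads of Rpl39 and Rpl39l could be told apart, since their coding sequences (GENCODE transcripts, 153 bases each) differ at 23.0 bases, in capitals below, and share no run of identical bases longer than 38.0.
Rpl39: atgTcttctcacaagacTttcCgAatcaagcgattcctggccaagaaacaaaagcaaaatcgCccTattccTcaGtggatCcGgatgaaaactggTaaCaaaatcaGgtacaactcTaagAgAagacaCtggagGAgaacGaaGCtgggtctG
Rpl39l: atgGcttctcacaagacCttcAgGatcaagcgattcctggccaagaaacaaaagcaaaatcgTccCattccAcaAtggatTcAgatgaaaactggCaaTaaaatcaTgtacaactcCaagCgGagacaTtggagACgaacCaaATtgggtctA

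Rps27l, by contrast, was a paralog used in liver. Its level was 391 ± 26.7 TPM in control mice and 424 ± 26.0 TPM in Mc1r LKO mice, above that of Rps27 (187 ± 22.7 and 215 ± 16.1 TPM), and Rps27l made up 67.7% ± 2.02 of the pair in control mice and 66.4% ± 0.865 in Mc1r LKO mice (SD, n = 4). Dividing by the length of 1 coding transcript brought the pair close together, to 667 for Rps27l and 608 for Rps27 on the TPM scale, so the order of the pair depended on the length. The coding sequences differ at 60.0 of 252 bases (capitals), which keeps their reads apart.
Rps27: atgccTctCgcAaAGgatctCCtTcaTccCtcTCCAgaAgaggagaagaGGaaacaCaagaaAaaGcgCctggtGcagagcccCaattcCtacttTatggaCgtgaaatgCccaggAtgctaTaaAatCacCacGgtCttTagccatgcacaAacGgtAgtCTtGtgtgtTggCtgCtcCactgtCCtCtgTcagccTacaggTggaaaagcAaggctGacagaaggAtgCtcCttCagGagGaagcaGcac
Rps27l: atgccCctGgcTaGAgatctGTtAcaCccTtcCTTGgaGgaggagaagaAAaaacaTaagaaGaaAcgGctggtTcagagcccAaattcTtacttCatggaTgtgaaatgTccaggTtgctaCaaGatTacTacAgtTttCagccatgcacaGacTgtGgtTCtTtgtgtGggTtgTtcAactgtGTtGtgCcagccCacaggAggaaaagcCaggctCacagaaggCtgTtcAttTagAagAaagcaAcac
The retrogene Rps27rt differs from Rps27 at 0 of the 252 coding bases, and 98.5% of the 75-base windows of Rps27 occur in transcripts of another gene, against 12.0% for Rps27l. Read pairs that align to several genes were not counted, so the level of Rps27 is a lower bound too. Rps27rt had 17, 5, 6 and 10 counts in the control mice and 15, 9, 21 and 25 in the Mc1r LKO mice.

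Of the remaining pairs, Rpl36al stood at 19.5 ± 1.25 and 21.9 ± 0.924 TPM beside 66.6 ± 5.79 and 76.9 ± 10.2 TPM of Rpl36a, a share of 22.7% and 22.3% of the pair. Rpl36al shared 24.5% of its exonic bases with Gm49383 on the same strand, and 84.6% of the 75-base windows of Rpl36a occur in transcripts of another gene, so both levels are lower bounds and the share is uncertain. Rps4l, a retrocopy of the X-linked Rps4x, had 359, 165, 321 and 353 counts in the control mice and 341, 259, 289 and 249 in the Mc1r LKO mice. Its share of the pair was 17.2% ± 2.46 in control mice and 14.8% ± 3.93 in Mc1r LKO mice (SD, n = 4), and the groups overlapped. Rpl37rt made up 12.0% ± 3.40 and 10.2% ± 2.17 of its pair with Rpl37, also with overlap.

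Between the genotypes, nearly the whole set of ribosomal protein genes stood slightly higher in the Mc1r LKO group. The log2 fold change was above 0 in 80 of the 81 genes, as it was in 47.9% of all 13400 genes tested, and its median was 0.27 (1.20-fold), against -0.011 over all genes tested. By edgeR's quasi-likelihood test, 64 of the 81 had an unadjusted p under 0.05 and were higher in Mc1r LKO mice, where 3.86% of all genes were. The number lower was 0, where 2.87% of all genes were lower. Short genes outside the set were higher more often than all genes were. Of those of similar level, 35 of the 42 with a coding transcript of up to 500 bases were above 0. So were 330 of the 399 of over 500 to 1000 bases. At an unadjusted p under 0.05 by the same test, 38.1% of the 42 and 25.6% of the 399 were higher. With Benjamini-Hochberg adjustment over all genes, 0 members and 0% of all genes passed 0.05, and the smallest adjusted p of a member was 0.734. DESeq2 with its own adjustment called 3 members, Rpl13 (adjusted p = 0.00545), Rps27a (adjusted p = 0.00870) and Rps3 (adjusted p = 0.0219). Of the 8458 genes to which it gave an adjusted p, it called 0.142% higher and 0.0591% lower. The genotypes did not overlap, with the Mc1r LKO mice above, in 27 of the 81 genes, against 2.63% of all genes. The same held for 4 of the 42 and 62 of the 399 short genes outside the set. No member had all Mc1r LKO mice below the controls, against 1.54% of all genes. In whole liver, fewer cells of a type and less RNA per cell cannot be told apart.

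The shift was about as large as the distance of control mouse 159 from the other control mice. Members took 0.836, 0.959, 0.777 and 0.867% of the counts in control mice 154, 159, 181 and 193, and 1.10, 1.05, 0.975 and 0.896% in Mc1r LKO mice 141, 156, 157 and 182. These shares averaged 0.860% ± 0.0759 and 1.01% ± 0.0879 (SD, n = 4) and overlapped, as control mouse 159 lay above Mc1r LKO mouse 182. The mean log2 CPM over the 81 genes was 6.21, 6.46, 6.15 and 6.20 in the control mice and 6.62, 6.56, 6.48 and 6.47 in the Mc1r LKO mice, with control mouse 159 just under the lowest Mc1r LKO mouse. In 70 of the 81 genes control mouse 159 was above the other 3 control mice, and over all 81 genes it lay a median of 0.29 on the log2 scale above their mean. Without it the median log2 fold change was 0.36 and 72 members had an unadjusted p under 0.05, where 4.69% of all genes were higher at that threshold. Leaving out control mouse 154, 181 or 193 instead lowered that count to 39, 33 and 40 (2.99%, 3.01% and 2.53% of all genes), and leaving out Mc1r LKO mouse 141 or 156 lowered it to 36 and 39 (2.7% and 2.61% of all genes). The log2 fold change of 12 of the 81 genes moved by over 1.5 times when some single mouse was left out, in 9 of them through control mouse 159. Scaled by library size alone, with no TMM factors, 28 members passed (1.69% of all genes), the median was 0.23, and the calls over all genes turned from 517 higher and 384 lower to 226 higher and 572 lower. Mouse 141 was the highest of the 8 for 49 of the genes, and mouse 156 for 18.

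**Figure D2:**
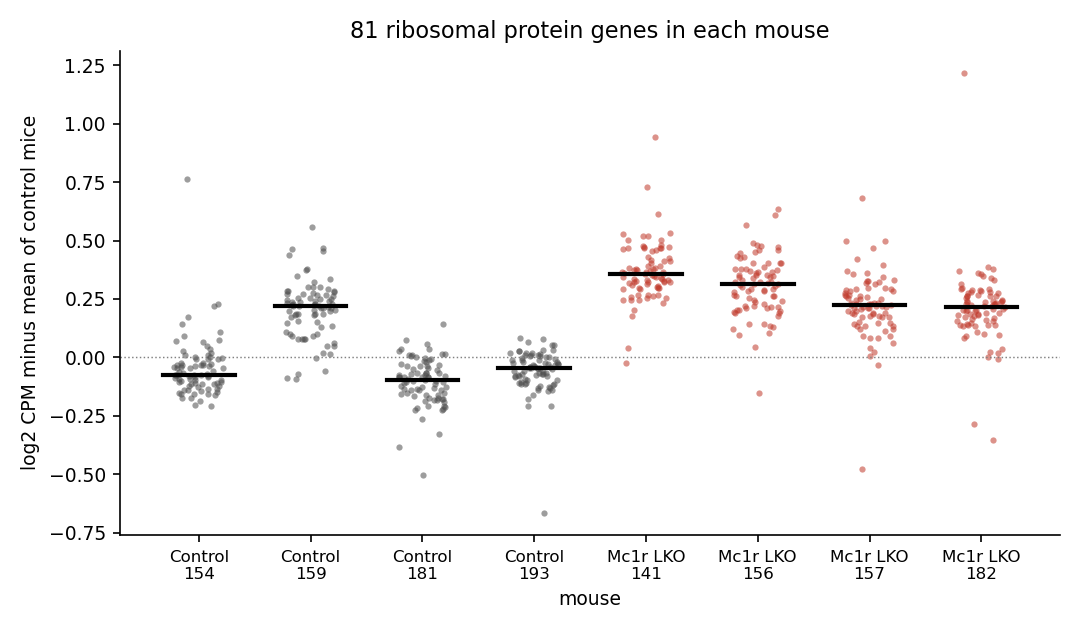
Log2 CPM of the 81 ribosomal protein genes in each mouse, minus the mean of the 4 control mice for that gene. Each point is a gene and each black bar the median of a mouse; the medians of control mice 154, 181 and 193 lie between -0.10 and -0.05, that of control mouse 159 at 0.22, and those of the Mc1r LKO mice between 0.22 and 0.35.

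The fold changes of the members lay close together. These log2 fold changes had an SD of 0.099 and quartiles of 0.23 and 0.32, and 66 of the 81 lay within 0.1 of their median, where 39.5% of all genes lay within 0.1 of theirs. Among the 6659 other genes of similar level (between the 5th and 95th percentile of the members' log2 CPM), the SD was 0.18 and the median 0.011. That spread among the members was no larger than the median standard error of a single member, 0.10. The standard error also holds differences between mice that the members share, such as that of control mouse 159. Such differences largely cancel in the spread between members, so this comparison does not show that the members shift alike. Both subunits took part, with a median of 0.26 over 48 large subunit genes and 0.28 over 33 small subunit genes. The libraries were also scaled on the summed counts of the members, so that a gene is tested for a departure from the common shift. By edgeR's quasi-likelihood test, 0 of the 81 then had an unadjusted p under 0.05 and 0 passed adjustment. Of all genes, 0.157% were higher and 25.7% lower at the unadjusted threshold and 0 passed adjustment. This scaling centres the members near 0 by construction (median log2 fold change -0.00028). Their SD in this fit, 0.099, was no larger than the median standard error of a member given above, so few could pass. The count of 0 members therefore does not show that the members shift alike. Across the 81 genes the fold change was nearly unrelated to level (Spearman's rho 0.020) and to exonic length (-0.099), values that describe genes of the same 8 libraries.

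**Figure D3:**
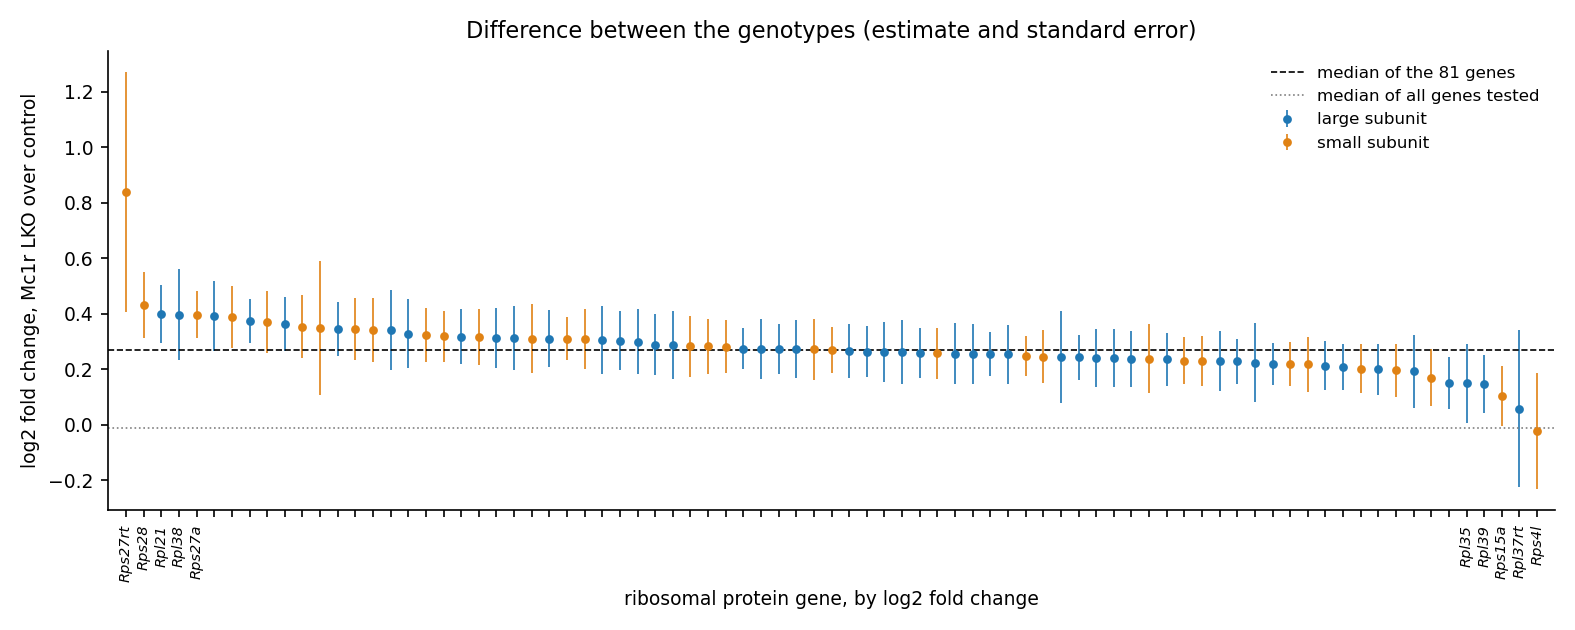
Log2 fold change (Mc1r LKO over control) of the 81 genes, ordered from the highest to the lowest, with the standard error as bars, the subunit as colour and the 5 genes at each end named. Rps27rt at 0.84 and Rps4l at -0.02 mark the ends and have wide bars, and most genes lie near the median of 0.27 (dashed), above the median of all genes tested at -0.011 (dotted).

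By role, the stalk of the large subunit comes first, since it holds the gene of the highest level. Rplp0, the stalk's base and a common reference gene in qPCR, had 254, 257, 261 and 246 CPM in the control mice and 305, 290.3, 289 and 299.6 CPM in the Mc1r LKO mice. The groups did not overlap, and its log2 fold change was 0.22 (SE 0.075, unadjusted p = 0.0150). Rplp1 had 199, 251, 216 and 194 CPM in the control mice and 265, 283, 249 and 241 CPM in the Mc1r LKO mice, so that control mouse 159 passed 2 of the Mc1r LKO mice, and its log2 fold change was 0.27 (SE 0.10, unadjusted p = 0.0260). Its partner Rplp2 had 105, 122, 91.2 and 99.0 CPM in the control mice and 125, 137, 134 and 121 CPM in the Mc1r LKO mice, with a log2 fold change of 0.31 (SE 0.10, unadjusted p = 0.0132) and control mouse 159 again inside the range of the Mc1r LKO mice.

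Rpl5 and Rpl11 enter the large subunit bound to its smallest ribosomal RNA, and when free they hold the p53 regulator Mdm2. For Rpl5 there were 71.5, 70.8, 62.8 and 63.5 CPM in the control mice and 86.4, 85.6, 73.5 and 78.8 CPM in the Mc1r LKO mice, without overlap, and the log2 fold change was 0.27 (SE 0.089, unadjusted p = 0.0117). Rpl11 had 103, 132, 94.9 and 96.5 CPM in the control mice and 141, 143, 126 and 117 CPM in the Mc1r LKO mice, with groups that overlapped through control mouse 159, and its log2 fold change was 0.30 (SE 0.12, unadjusted p = 0.0323).

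Of the proteins that line the exit tunnel or its rim, Rpl4, which reaches into the tunnel, had 383, 422, 428 and 398 CPM in the control mice and 483, 438, 399 and 489 CPM in the Mc1r LKO mice. Its groups overlapped, and the log2 fold change of 0.15 (SE 0.10, unadjusted p = 0.146) did not reach the unadjusted threshold. Rpl39, the small tunnel protein whose sequence is printed above, had 26.3, 34.5, 28.2 and 30.0 CPM in the control mice and 36.4, 32.4, 32.5 and 30.1 CPM in the Mc1r LKO mice and a log2 fold change of 0.14 (SE 0.10, unadjusted p = 0.197), with control mouse 159 above 3 of the Mc1r LKO mice. At the rim, where the signal recognition particle docks, Rpl26 had 84.0, 101.6, 81.4 and 78.4 CPM in the control mice and 111, 117, 108 and 108 CPM in the Mc1r LKO mice and did not overlap, with a log2 fold change of 0.36 (SE 0.10, unadjusted p = 0.00367). Rpl23a (0.30) and Rpl19 (0.26) were also without overlap, whereas Rpl35 (0.15, unadjusted p = 0.322) and Rpl31 (0.24, unadjusted p = 0.170) overlapped and were not past the threshold. With single mice left out Rpl35 ran from 0.066 to 0.29 and Rpl31 from 0.14 to 0.43, both highest without control mouse 159 and both lowest without control mouse 181.

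In the small subunit, Rps3 and Rps2 sit at the entry of the messenger RNA channel, Rps23 and Rps15 lie at the decoding site, and Rps6 is phosphorylated downstream of mTOR. Rps3 had 174, 181, 180.4 and 182 CPM in the control mice and 239, 219, 211 and 219.7 CPM in the Mc1r LKO mice, without overlap, and its log2 fold change was 0.31 (SE 0.078, unadjusted p = 0.00255). None of its 75-base windows occurs in a transcript of another gene. Rps6 had 69.3, 62.8, 65.8 and 66.3 CPM in the control mice and 77.6, 77.4, 79.5 and 78.8 CPM in the Mc1r LKO mice, also without overlap, and a log2 fold change of 0.25 (SE 0.072, unadjusted p = 0.00649). For Rps2 (0.27, SE 0.082, unadjusted p = 0.00845) the groups were also apart. Rps23 (0.37, SE 0.11, unadjusted p = 0.00800) and Rps15 (0.27, SE 0.11, unadjusted p = 0.0354) overlapped through control mouse 159.

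Rps27a, which encodes ubiquitin fused to a small subunit protein, had the smallest p of the members. Rps27a (ENSMUSG00000020460, chromosome 11 of GRCm38 from 29545846 to 29548109, minus strand) had 88.7, 89.6, 82.9 and 78.6 CPM in the control mice and 122, 108, 106 and 111 CPM in the Mc1r LKO mice, with all Mc1r LKO mice above all control mice, and a log2 fold change of 0.40 (SE 0.084, unadjusted p = 0.000781). Rpl13 was next by p. Rpl13 (ENSMUSG00000000740, chromosome 8 of GRCm38 from 123102350 to 123105244, plus strand) had 89.8, 96.2, 84.3 and 90.9 CPM in the control mice and 125, 113, 116 and 114 CPM in the Mc1r LKO mice and a log2 fold change of 0.37 (SE 0.079, unadjusted p = 0.000790), and its distance from Mc1r, on the same chromosome, is 302 kb, less than that of any other member. Whether that position has a part in its value was not tested. Its share of windows found in other genes was 79.6%.

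Among the other members of small p, Rps28, a small protein at the exit of the messenger RNA channel, had 26.3, 28.8, 22.1 and 21.1 CPM in the control mice and 33.9, 37.2, 30.0 and 31.1 CPM in the Mc1r LKO mice and the largest log2 fold change after that of Rps27rt, at 0.43 (SE 0.12, unadjusted p = 0.00496). Rpl21 had 107, 128, 94.9 and 103 CPM in the control mice and 144, 151, 144 and 131 CPM in the Mc1r LKO mice, with control mouse 159 just under the lowest Mc1r LKO mouse, and a log2 fold change of 0.40 (SE 0.10, unadjusted p = 0.00328). Rpsa, also known as the laminin receptor precursor, had 172, 209.6, 192 and 180.5 CPM in the control mice and 245, 232, 218 and 245 CPM in the Mc1r LKO mice and a log2 fold change of 0.32 (SE 0.091, unadjusted p = 0.00567). Rpl9 (0.27), Rpl18 (0.35) and Rps18 (0.39) completed the 10 of smallest p, and the groups of each of the 10 did not overlap. Rps27rt had the highest log2 fold change of all (0.84, SE 0.43, unadjusted p = 0.0807), but on at most 25 counts in a mouse.

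At the lower end stood Rps4l (-0.02, SE 0.21, unadjusted p = 0.908), Rpl37rt (0.06, SE 0.28, unadjusted p = 0.845), Rps15a (0.10, SE 0.11, unadjusted p = 0.360), Rpl39 and Rpl35. Rps4l had 19.1, 15.3, 16.7 and 14.4 CPM in the control mice and 23.6, 16.8, 11.7 and 12.7 CPM in the Mc1r LKO mice, with both the highest and the lowest mouse among the Mc1r LKO mice, and Rpl37rt likewise overlapped throughout. Their log2 fold changes changed sign when single mice were left out, from -0.25 to 0.12 for Rps4l and from -0.13 to 0.26 for Rpl37rt. Both are pseudogenes by annotation, and without them 79 of 79 protein coding members were above 0. Rps15a had 46.9, 58.3, 42.7 and 51.3 CPM in the control mice and 59.1, 53.8, 50.3 and 50.7 CPM in the Mc1r LKO mice, overlapping through control mice 159 and 193.

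Ribosomal protein genes often serve as reference genes in qPCR, on the premise of a constant level. The 6 in common use that were listed here, Rplp0, Rpl13a, Rpl19, Rpl32, Rps18 and Rps29, had a median log2 fold change of 0.29. All 6 were higher in Mc1r LKO mice at an unadjusted p under 0.05, as were 64 of 81 members and 3.86% of all genes. Of the 6, 3 passed without control mouse 181, and 4 without mouse 154, 193, 141 or 156. In the fit with an offset on coding transcript length, given below, only Rpl13a (0.31) and Rps18 (0.27) of the 6 passed. Rps18 had 114, 150.3, 109 and 124 CPM in the control mice and 171, 172, 151 and 158 CPM in the Mc1r LKO mice, without overlap, and a log2 fold change of 0.39 (SE 0.11, unadjusted p = 0.00564). Rpl32 (0.26, SE 0.11, unadjusted p = 0.0352) and Rps29 (0.31, SE 0.12, unadjusted p = 0.0312) had overlapping groups.

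The direction was the same whatever share of a member's sequence occurs elsewhere. Members were grouped by the share of their 75-base windows that also occur in transcripts of another gene. The median log2 fold change was 0.25 over the 16 members with under 25% of windows shared (15 above 0), 0.27 over the 46 with 25 to 75% (46 above 0), and 0.28 over the 19 with 75% or more (19 above 0). Of the 299 named ribosomal protein pseudogenes in the tables, 154 had any count and 22 passed the filter. Together the 299 took from 0.00395% to 0.00599% of all counts, against at least 0.777% for the members.

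Length of the transcript moved with the shift. The exonic length, which joins all transcripts of a gene, had a median of 1722.5 bases over the 86 members and 4285 over the other genes tested. Other short genes stood higher in Mc1r LKO mice too. Among other genes of similar level, the median log2 fold change was 0.20 for the 42 with a coding transcript of up to 500 bases, 0.17 for the 399 of over 500 to 1000 bases, 0.079 for the 1480 of over 1000 to 2000 bases, 0.011 for the 2644 of over 2000 to 4000 bases and -0.058 for the 2088 of over 4000 bases. In the first 4 of these classes, which held 72 of the 73 members in that range of level, members had medians of 0.29 (14 genes), 0.26 (42 genes), 0.26 (14 genes) and 0.25 (2 genes). Their medians were above those of other genes in each of the 4 classes, a difference that was not tested, and their own medians differed little between classes. The class of a gene rests on 1 annotated transcript. That transcript has 2045 bases for Rpl5, 3706 for Rps20 and 5130 for Rps15a. Which transcript the liver used was not determined, so members in the longer classes may have shorter messenger RNAs, and their comparison with other genes there is uncertain. By edgeR's quasi-likelihood test, 38.1%, 25.6%, 8.85% and 2.87% of the other genes in these 4 classes were higher at an unadjusted p under 0.05. Of the members, 14 of 14, 33 of 42, 12 of 14 and 1 of 2 were.

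**Figure D4:**
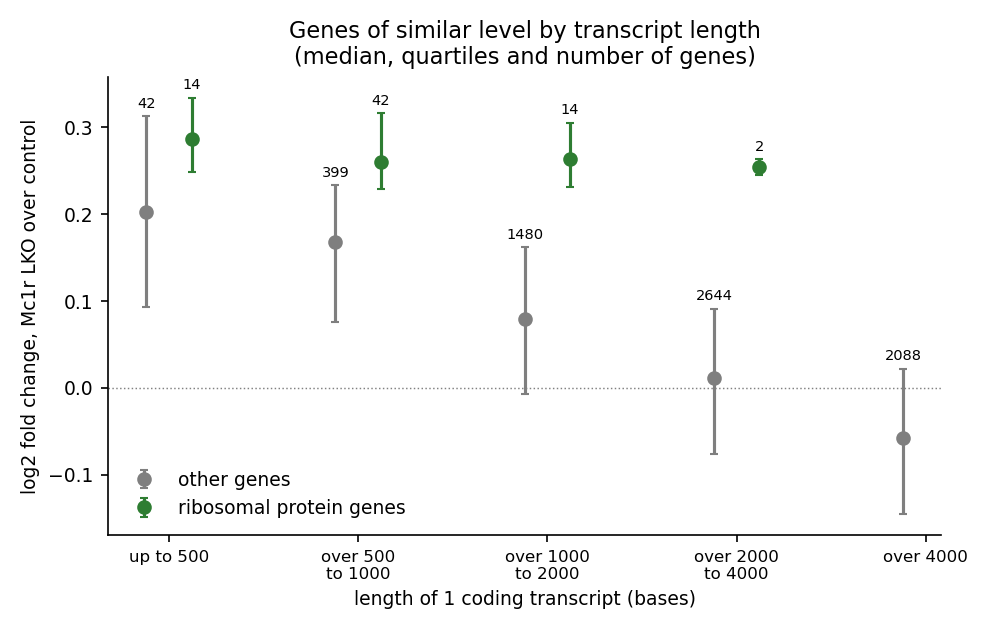
Log2 fold change (Mc1r LKO over control) by the length of 1 coding transcript, for ribosomal protein genes (green) and for other genes of similar level (grey). Points are medians, bars run between the quartiles and the numbers count genes. The grey medians fall from 0.20 to -0.058 with length while the green ones stay between 0.25 and 0.29. Lengths are annotated, and the transcript used in liver was not determined.

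A second measure, on exonic length and without matching for level, differed between the mice within a genotype. The median log2 CPM of other genes with under 1000 exonic bases, minus that of genes with over 4000, was -2.97, -2.78, -3.04 and -3.09 in control mice 154, 159, 181 and 193 and -2.80, -2.75, -2.88 and -3.01 in Mc1r LKO mice 141, 156, 157 and 182. The 4 mice with the highest values (156, 159, 141 and 157) were also the 4 with the largest shares of counts on the members. With an offset for each mouse from a smooth of other genes on exonic length, the median log2 fold change of the members was 0.20 and 38 of the 81 had an unadjusted p under 0.05, where 2.9% of all genes were higher at that threshold. With the length of 1 coding transcript in its place the median was 0.16 and the count 28, where 2.57% of all genes were. In both fits 79 of the 81 genes were above 0, 0 members were lower at the unadjusted threshold and 0 passed adjustment. With that offset and without control mouse 159 the median was 0.20 and the count 40, where 2.47% of all genes were. Members of the smallest p in the coding length fit were Rpl21 (log2 fold change 0.31), Rps3 (0.28), Rpl13 (0.27) and Rps27a (0.28). What sets the length measure of a mouse was not tested. The share of counts on mitochondrially encoded genes overlapped between the genotypes, at between 6.39% and 7.17% of counts over the 8 mice.

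**Figure D5:**
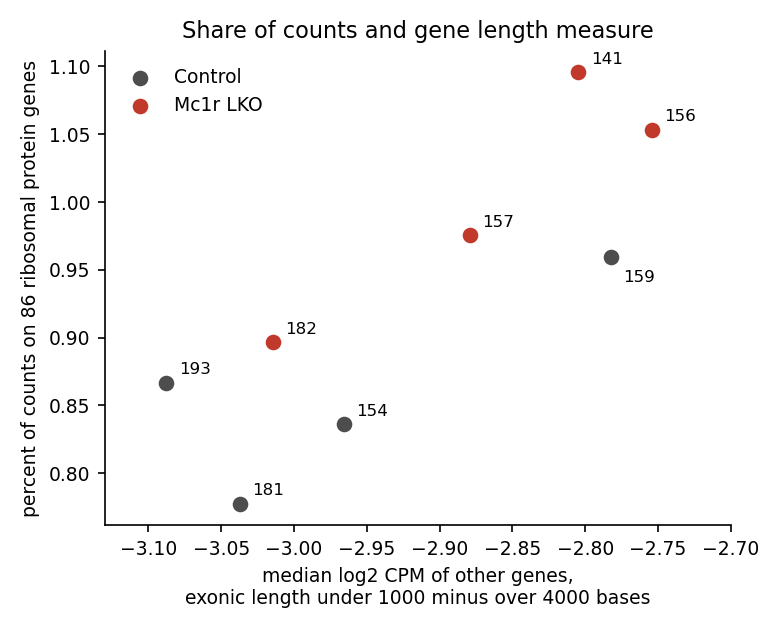
Percent of counts on the 86 ribosomal protein genes in each mouse against the length measure of other genes, with control mice in grey, Mc1r LKO mice in red and mouse numbers beside the points. Mice 141, 156, 157 and 159 lie to the upper right, with at least 0.959% of counts on the members and a length measure of at least -2.88.

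Genes that work beside the members were compared by their counts, with no adjustment for the length of their transcripts. At an unadjusted p under 0.05, 3.86% of all genes were higher and 2.87% lower. Ribosomal proteins outside the naming rule stood with the members, as 4 of 6 were higher at that threshold. Among them were Fau with 0.35 (SE 0.10, unadjusted p = 0.00556), Rps3a1 with 0.27 (SE 0.089, unadjusted p = 0.0124) and Rack1 with 0.23 (SE 0.087, unadjusted p = 0.0217), while the paralogs Rpl7l1 (0.15, SE 0.10, unadjusted p = 0.172) and Rpl22l1 (0.01, SE 0.18, unadjusted p = 0.936) did not reach it. Rack1 missed it too without mouse 154, 141 or 156. Ribosome biogenesis factors, which process ribosomal RNA and assemble the subunits, were above 0 in 55 of 66 genes (47.9% of all genes were), with a median of 0.11. Of these factors, 9 were higher and 0 lower at the unadjusted threshold (5 higher and 1 lower without control mouse 193). Those of smallest p were Imp3 with 0.29 (SE 0.079, unadjusted p = 0.00459), a protein of the small subunit processome, and Nhp2 with 0.32 (SE 0.091, unadjusted p = 0.00519), a protein of H/ACA particles that guide RNA modification. Subunits and factors of RNA polymerase I, which transcribes ribosomal RNA, had a median of 0.0082 over 11 genes, with 0 past the threshold in either direction, Taf1c (0.43, SE 0.21, unadjusted p = 0.0628) and Ubtf (0.14, SE 0.10, unadjusted p = 0.196) having the smallest p.

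Other messenger RNAs of the TOP class, mostly translation factors, had a median of 0.14 in 13 genes. Of the 13, 4 were higher at the unadjusted threshold, where 3.86% of all genes were. The 4 were Eef1d at 0.32 (SE 0.091, unadjusted p = 0.00513) and Eif3f at 0.25 (SE 0.074, unadjusted p = 0.00643), in front of Eef1b2 (0.23) and Eef1g (0.20). Eef1b2 did not reach the threshold without mouse 181, nor Eef1g without mouse 154 or 156. Regulators of TOP translation had a median of -0.034 over 11 genes. It was 0.018 without mouse 181, 0.0049 without mouse 141 and -0.12 without mouse 182, where 10 of the 11 were below 0. In the fit on all mice 1 was past the threshold, Eif4ebp1, a repressor of cap-dependent translation, at 0.29 (SE 0.11, unadjusted p = 0.0239). Without control mouse 181 or Mc1r LKO mouse 156 Eif4ebp1 no longer reached it. Myc, at -1.25 (SE 0.66, unadjusted p = 0.0842), rested on control mouse 159 alone, which had 31.5 CPM against at most 6.54 CPM in any of the others, and without it the value was 0.0093 (unadjusted p = 0.975). Host genes of small nucleolar RNAs, which share the TOP type of start, had a median of 0.14 in 8 genes. Of these, 1 was higher at the unadjusted threshold (3.86% of all genes were), Snhg8 at 0.36 (SE 0.12, unadjusted p = 0.0140). Snhg3 stood at 0.40 (SE 0.19, unadjusted p = 0.0605). Of the 8, 3 were below 0, among them Zfas1 at -0.25 (SE 0.14, unadjusted p = 0.0963), in which all Mc1r LKO mice lay below all control mice. None of the genes in these lists passed adjustment.

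Markers of other liver cells were listed beside the members, since those cells also contain ribosomes. The 7 Kupffer cell markers were all below 0 (median -0.45) and summed to between 265 and 628 CPM in control mice and between 183 and 383 CPM in Mc1r LKO mice, with 1 of the 7, Csf1r (-0.77, SE 0.32, unadjusted p = 0.0375), past the unadjusted threshold. Control mouse 159 was the highest of the 8 mice for each of the 7. Without it the median was -0.17, Timd4 (0.21) and Marco (0.61) were above 0, and Csf1r (-0.45, unadjusted p = 0.146) was not past the threshold, which it also missed without mouse 193, 141, 157 or 182. Endothelial markers (5 genes) had a median of -0.16 and stellate cell markers (5 genes) a median of -0.015, with 0 past it. Of the 5 neutrophil and 6 T cell markers 2 and 1 passed the filter, and each list summed to at most 6.91 CPM in a mouse. B cell markers (2 of 5 tested), erythroid markers (3 of 4 tested) and cholangiocyte markers (4 of 5 tested) had medians of -0.35, 0.26 and 0.37, with overlapping sums and 0 past the threshold. The 8 hepatocyte markers had a median of 0.15, with 1 past the unadjusted threshold, Tat, an enzyme of tyrosine breakdown, at 0.88 (SE 0.37, unadjusted p = 0.0374). Tat was not past it without mouse 154, 159, 193, 141 or 156, and without Mc1r LKO mouse 182 the median of the hepatocyte markers was 0.0019. The part of these cells in the shift of the members was not tested.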

How the data were processed

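Liver RNA of 4 control and 4 Mc1r LKO mice was sequenced from stranded mRNA libraries. The authors trimmed reads with Trim Galore 0.6.6, aligned them with STAR 2.7.6a and deposited raw counts of read pairs on genes, made with featureCounts 2.0.1 on an Ensembl annotation of GRCm38 with strand option 2, while the methods write GRCh38. Pairs that align to several places or overlap several genes were not counted. No other sample columns were present (0 left unused). Symbols were matched for 55141 of 55487 identifiers.

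From the deposited counts, the 13400 genes kept by filterByExpr (minimum count 10, minimum total 15) were scaled with TMM factors and fitted in edgeR 4.0.16 (glmQLFit and glmQLFTest, R 4.3.3), two-sided, with Benjamini-Hochberg adjustment over all genes tested. DESeq2 1.42.0 and limma 3.58.1 (voom) were alternatives. The fit was tested on simulated data with known changes. CPM values use TMM library sizes, log2 CPM a prior count of 2. Counts of 4 mice per group, and totals from 10773151 to 24763375, set the precision; the limit for a count of 0 covers counting error only.

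Start sequences came from RefSeq, coding sequences and transcript windows from GENCODE M21 (GRCm38). The members and gene lists were chosen with earlier results of these data known. Named genes are those of highest and lowest level and fold change, of smallest p, without overlap between genotypes or not kept by the filter, the genes of the role, reference and paralog lists, and the 2 of smallest p in other lists; Myc and Csf1r, Eef1b2, Eef1g and Tat were named after their values were seen. No batch is named for these mice, so none could be tested. Some genes are not reported by name here.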

Additional observations from a re-analysis of the deposited data

Results flagged for a closer look

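In 108 groups of 4 mice checked for a value far from the other 3, 5 were found, where chance gives about 1 in 20 groups. Control mouse 159 stood apart from the other control mice for Rpl19 (131 CPM, the others from 104 to 109 CPM), Rpl36a (53.5 CPM, the others from 41.6 to 42.5 CPM) and Rps29 (74.5 CPM, the others from 52.8 to 55.7 CPM). Control mouse 154 had less Rps3 (174 CPM) than the other control mice (180.4 to 182 CPM). Mc1r LKO mouse 141 had more Rps21 (83.2 CPM) than the other Mc1r LKO mice (71.5 to 73.1 CPM). The 3 values of mouse 159 come from 1 library and are not independent.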

How the results depend on the processing

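No paired analysis was possible because the mouse numbers are not shared between the genotypes. The direction held widely: 79 to 82 of the members tested (80 to 85) were above 0 under every test, scaling, filter and left-out mouse set beforehand. The number of members higher in Mc1r LKO mice at an unadjusted p under 0.05 was 64, and 33 to 72 when single mice were left out; it was 28 with library size alone. Alternatives chosen after seeing the data gave 38 with an offset on exonic length, 28 with an offset on coding transcript length, 40 with that offset and without control mouse 159, and 0 when libraries were scaled on the members themselves. The median log2 fold change ran from 0.24 to 0.36 with single mice left out and from 0.16 to 0.27 over the other alternatives, apart from scaling on the members, which sets it near 0. At an adjusted p under 0.05, DESeq2 called 3 members and 17 genes of the whole table, and edgeR without the filter called 1 gene. Whether the DESeq2 calls come from its dispersion estimates was not tested. The difference in the share of counts was 0.145 percentage points, between 0.115 and 0.181 with single mice left out. With single mice left out, log2 fold changes ran from -0.25 to 0.12 for Rps4l, turning above 0 without mice 154, 157 or 182 (0.062, 0.12 and 0.078), and from -0.13 to 0.26 for Rpl37rt, turning below 0 without mice 193 or 157 (-0.13 and -0.11). Of the values of named members under single alternatives, 112 lost and 6 gained the unadjusted threshold, most of them with a mouse left out, and 760 kept direction and side of the threshold. With 4 mice per group the median standard error of a member was 0.10 on the log2 scale, and counts that several genes share are not in these values.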
